A study of Mus musculus with 24 samples.

Results

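The genes described here are 9 major urinary protein genes of the mouse, Mup1, Mup2, Mup3, Mup4, Mup5, Mup6, Mup7, Mup20 and Mup21, out of 55797 gene names counted in each library. They were picked by symbol, with it already known from these libraries that Mup counts were low in db/db liver, so the genotype differences below describe the members and are not tested. All 9 passed the filter on low counts in liver, where 19352 genes were tested, and 2 of the 9 (Mup3 and Mup5) passed it in brain. The files also hold 13 other Mup rows without a pseudogene name and 27 rows with one, 49 Mup rows in all.

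RNA was sequenced from liver and brain of male mice on a C57/BL6 background (the labels write the strain as C57/BL6). By the sample titles, liver gave 12 libraries: 6 from db/db mice, which carry 2 defective copies of the leptin receptor gene Lepr and become obese and diabetic, and 6 from db/+ mice, which carry 1 defective and 1 intact copy. For both genotypes the drink was water, sucrose or brazzein (a sweet-tasting plant protein), with 2 libraries for each drink, and the labels give 16 weeks of treatment for all. The brain libraries follow the same plan, without a named region. Mice without a defective Lepr copy are not among the groups, and the age of the mice is not given in the sources used here. The separate genotype entry of the labels calls every liver db/db and every brain db/+, against the titles, and was not used. Nothing states that replicates are separate animals, so the p-values measure only the spread between these samples, which may be technical.

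Major urinary proteins are small lipocalins, proteins folded into a barrel that holds greasy molecules. Male mouse hepatocytes secrete them in large amounts into the blood, the kidney passes them into urine, and there they carry and slowly release volatile pheromones. Liver transcription of the genes is known to need growth hormone given in the male pattern of pulses, with thyroid hormone and glucocorticoids acting as well. Mup20 encodes darcin, a male pheromone in its own right, and MUP1 has been described as a circulating protein that affects glucose metabolism. Mup4 and Mup5 are better known from glands and nasal tissue than from liver.

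The coding sequences bear on how far the members can be counted apart. The untranslated parts of the members' transcripts, which reads can also cover, were not assessed. In GENCODE vM21, the longest open reading frames of Mup1, Mup2 and Mup7 were 98.7% to 99.5% identical to each other and 97.1% to 99.8% identical to those of the 13 other coding Mup rows. Those of Mup3, Mup20 and Mup21 were 86.1% to 91.3% identical to Mup1, Mup2 and Mup7, and Mup3 and Mup21 were 96.3% identical to each other. Those of Mup4, Mup5 and Mup6 were 89.2% to 90.4% identical to Mup1, Mup2 and Mup7. Of all windows of 100 bases in the reading frame, 95.9% in Mup1, 97.1% in Mup2 and 82.8% in Mup7 also occurred unchanged in a transcript of another Mup gene. The share was 5.70% in Mup3, 5.82% in Mup21 and 0% in Mup4, Mup5 and Mup6. In Mup20 it was 72.0%, and all 322 of its shared windows occurred in the pseudogene Mup-ps19. How the authors' counting split such reads is not given in the sources used here, so values of Mup1, Mup2 and Mup7 are uncertain as values of single genes, and the sums over the family are given with them.

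Sequence just before the start was available from RefSeq (GRCm38.p6) for 6 of the 9 members: Mup2, Mup3, Mup4, Mup6, Mup7 and Mup21. The 120 bases before the start are shown for 4 of them, because they place a member of the near-identical set (Mup2) beside 2 members at the far end of the cluster (Mup3 and Mup21) and 1 member with hardly any liver counts (Mup4). Capitals mark TATATAA, the motif of a TATA box. Between it and the RefSeq start lie 20 bases in Mup2, 22 in Mup4, 4 in Mup3 and 1 in Mup21. Whether it acts as a TATA box for these starts was not tested.
Mup2, chr4:60139857-60139976, minus strand: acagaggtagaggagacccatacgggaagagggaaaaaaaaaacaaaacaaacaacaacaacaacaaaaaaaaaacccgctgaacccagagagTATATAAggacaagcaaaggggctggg
Mup3, chr4:62087318-62087437, minus strand: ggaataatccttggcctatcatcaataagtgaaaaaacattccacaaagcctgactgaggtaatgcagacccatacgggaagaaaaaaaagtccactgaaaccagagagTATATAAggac
Mup21, chr4:62150842-62150961, minus strand: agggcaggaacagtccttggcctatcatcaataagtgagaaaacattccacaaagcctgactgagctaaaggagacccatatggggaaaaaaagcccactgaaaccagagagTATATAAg
Mup4, chr4:59960668-59960787, minus strand: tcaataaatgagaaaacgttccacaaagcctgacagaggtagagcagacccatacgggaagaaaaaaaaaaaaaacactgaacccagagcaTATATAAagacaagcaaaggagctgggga

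In 5 of the 6 member windows of 300 bases (250 before and 50 after the start), TATATAA lay on the gene's own strand. The same held for 13 of the 14 Mup coding genes with a window. The exception in both counts was Mup7, whose window ends in a stretch that in Mup2 lies before the motif. That window therefore does not show whether Mup7 carries the motif further on. Searched on both strands, TATATAA lay in 3.24% of all 32851 RefSeq windows of that length. The spacer form TTCNNNGAA, the core to which STAT5 binds, lay in 0 of the 6 and in 0 of the 14, and in 8.3% of all windows, which says only that these letters are not in these windows. The windows of Mup3 and Mup21 were 93.9% identical over 294 aligned bases, and those of Mup2 and Mup3 88.6% over 246. Mup4, with almost no liver counts, was 91.3% identical to Mup2 over 265 bases and carries the same TATA motif.

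The libraries held 60384569 to 79385804 estimated counts in liver, and levels below are CPM, counts relative to library size, with library sizes scaled by TMM factors of 0.881 to 1.19. Lepr itself was at 1.90 to 18.9 CPM in db/+ and 0.690 to 2.504 CPM in db/db livers, which overlap, and the count pools all receptor forms. A set of 8 hepatocyte markers summed to 69878 to 91542 CPM in db/+ and 72185 to 99812 CPM in db/db, with 0 of 8 called. The 4 blood markers summed to 488 to 972 CPM in db/+ and 883 to 2845 CPM in db/db, with 3 of 4 higher in db/db (edgeR, adjusted p under 0.05), and the 5 Kupffer cell markers to 43.6 to 183 CPM in db/+ and 70.4 to 193 CPM in db/db, with 1 of 5 higher. Of the other lists tested, neuron and brain glia and stellate cell markers each had 1 gene higher and 1 lower, exocrine pancreas had 1 lower, and endothelium, cholangiocyte, lymphocyte and adipocyte had 0 called. The part of these markers in the Mup values was not tested. In bulk liver, fewer cells of a type and less RNA per cell cannot be told apart.

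As a family, the 9 members were far lower in every db/db liver than in any db/+ liver. Their sum in db/+ was 17989 and 41545 CPM on water, 24710 and 23982 CPM on sucrose, and 28155 and 6271 CPM on brazzein. In db/db it was 1068 and 1527 CPM on water, 1292 and 1575 CPM on sucrose, and 1063 and 1517 CPM on brazzein. The lowest db/+ library, brazzein replicate 2, stood well under the other db/+ livers and still above all of db/db. The means were 23775.5 ± 11626 against 1340 ± 234 CPM (SD, n = 6 each), a ratio of 17.7, and the ratio was 20.4 without db/+ brazzein replicate 2 and 15.1 without db/+ water replicate 2. The members took 0.612% to 3.66% of all counts in db/+ and 0.103% to 0.187% in db/db. Over all 49 Mup rows the means were 70240 ± 37185 against 1981 ± 789 CPM, a ratio of 35.5, and the share of counts was 1.32% to 11.0% in db/+ and 0.126% to 0.357% in db/db.

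**Figure D1:**
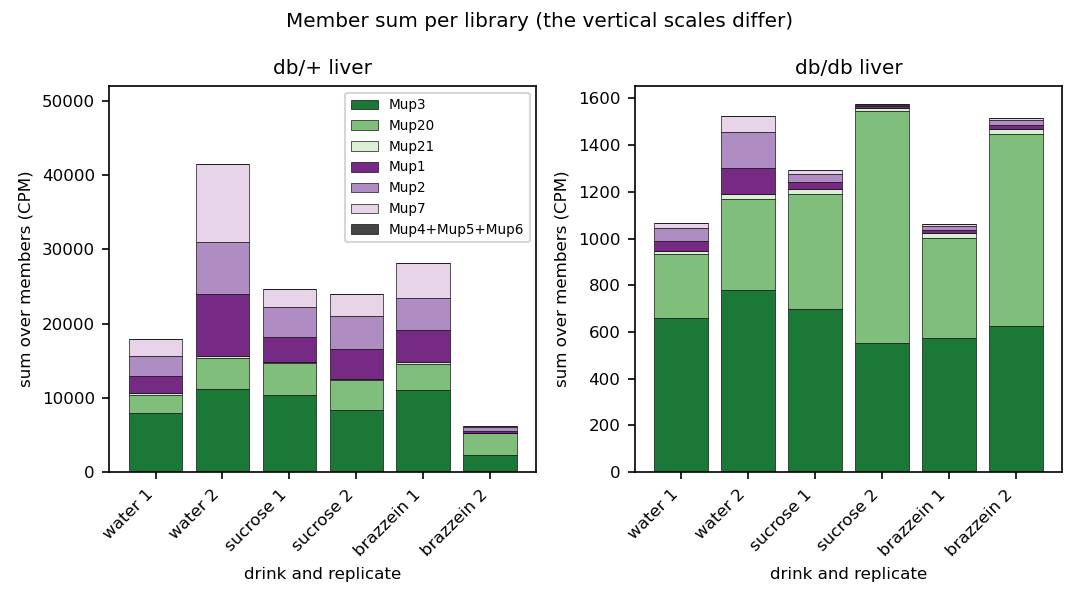
Sum of the 9 members in each liver library in CPM, stacked by gene, by drink and replicate, with db/+ on the left and db/db on the right on different vertical scales that both start at 0. The db/+ bars run from 6271 to 41545 CPM and the db/db bars from 1063 to 1575 CPM, and Mup3 and Mup20 fill most of each db/db bar.

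Of the 9 members, 8 did not overlap between the genotypes, with all 6 db/db libraries under all 6 db/+ libraries. Among all 19352 genes, 3.51% lay below without overlap in the same way. Since this contrast chose the members, the count is given as a description only. The 8 include Mup5 and Mup6, which passed the filter on low counts through db/+ alone.

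Mup3, Mup20 and Mup21 lie next to each other at the end of the cluster, and their db/db levels were a larger part of their db/+ levels than those of Mup1, Mup2 and Mup7. This grouping was made after the values were seen. Mup3, the member with the highest FPKM (a level per transcript length) in both genotypes, ranged over 2345, 9371 and 11129 CPM (lowest, median, highest) in db/+ and over 552, 643 and 778 CPM in db/db. Its means were 8548 ± 3317 against 648 ± 83.2 CPM (SD, n = 6 each), a ratio of 13.2. The 6 db/db livers lay close together, and the spread in db/+ came mostly from brazzein replicate 2 at 2345 CPM, with the other 5 at 8016 CPM or more. Mup20, the darcin gene, ranged over 2420, 3751 and 4288 CPM in db/+ and over 275, 460 and 994 CPM in db/db. Its means were 3561 ± 771 against 567 ± 278 CPM, a ratio of 6.28, the smallest among the 6 members for which a ratio is given. In db/+ brazzein replicate 2, where Mup3 was low, Mup20 stood at 2876 CPM, within the range of the other db/+ livers. Mup21, a member that is 96.3% identical to Mup3 in its reading frame, ranged over 64.1, 194 and 260.4 CPM in db/+ and over 13.3, 19.8 and 22.8 CPM in db/db. Its means were 181 ± 66.0 against 18.7 ± 3.92 CPM, a ratio of 9.69. For these 3 genes, leaving out any 1 library moved no ratio by more than 1.5 times.

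Mup1, Mup2 and Mup7 come from the long stretch of near-identical copies, and their db/db levels were a far smaller part of the db/+ levels. Mup1, the copy studied for its effect on glucose metabolism, ranged over 298, 3717 and 8326 CPM in db/+ and over 5.62, 22.5 and 112 CPM in db/db. Its means were 3779 ± 2657 against 36.7 ± 38.8 CPM (SD, n = 6 each), a ratio of 103. Mup2 ranged over 496, 4165 and 6981 CPM in db/+ and over 5.62, 27.9 and 154 CPM in db/db. Its means were 3815 ± 2145 against 47.6 ± 54.6 CPM, a ratio of 80.2. Mup7 ranged over 192, 2721 and 10601 CPM in db/+ and over 2.64, 11.97 and 70.3 CPM in db/db. Its means were 3884 ± 3595 against 21.3 ± 25.1 CPM, a ratio of 182. In all 3 genes the lowest db/+ library was brazzein replicate 2, and the highest library of both genotypes was water replicate 2. The ratios rest on those water libraries: without db/db water replicate 2 they were 173 for Mup1, 145 for Mup2 and 337 for Mup7, and without db/+ water replicate 2 they were 78.1, 66.9 and 119.

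**Figure D2:**
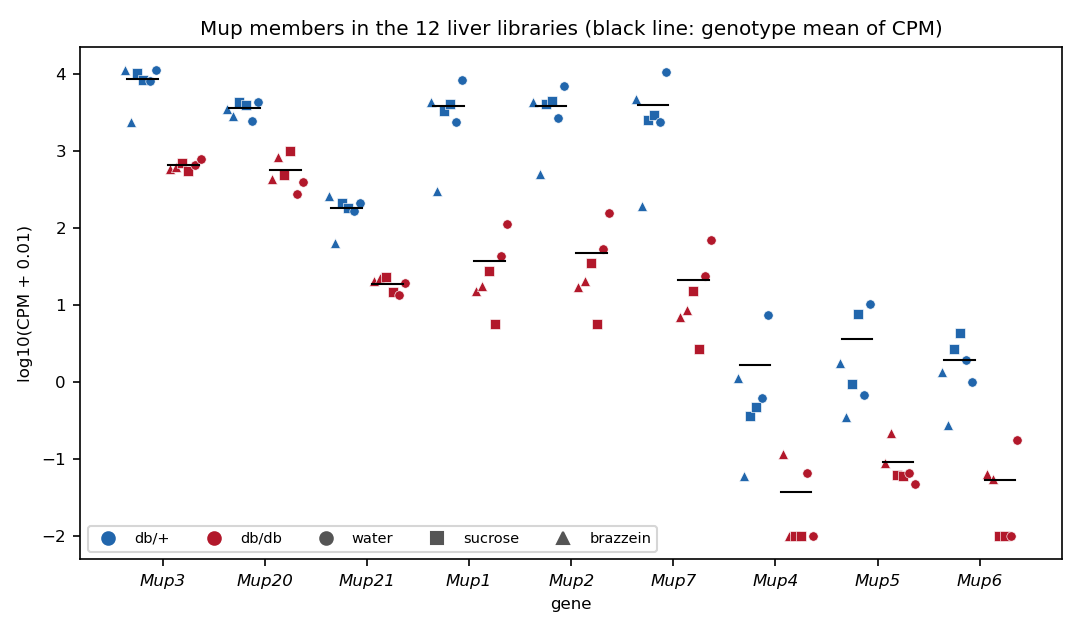
Level of each member in the 12 liver libraries as log10(CPM + 0.01), where a value of -2 is a gene listed at 0 CPM, by genotype (colour) and drink (shape), with a black line at the genotype mean of CPM. The genotypes do not overlap for 8 of the 9 members, the distance is smallest for Mup20, and Mup4 overlaps.

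Set side by side, the sum of Mup3, Mup20 and Mup21 was 5285 to 15618 CPM in db/+ and 948 to 1561 CPM in db/db (a ratio of the means of 9.96). The sum of Mup1, Mup2 and Mup7 was 985 to 25909 CPM in db/+ and 13.9 to 336 CPM in db/db (a ratio of 109). That ratio was 193 without db/db water replicate 2 and 81.3 without db/+ water replicate 2. Mup3, Mup20 and Mup21 together made up 37.6% to 84.3% of the member sum in db/+ and 78.0% to 99.1% in db/db, and these ranges overlap because of db/+ brazzein replicate 2 (84.3%), with the other 5 db/+ livers at 60.1% or less. Mup20 alone made up 10.3% to 45.9% of the member sum in db/+ and 25.8% to 63.1% in db/db. The deposited FPKM allows for transcript length, but not for how reads were split between near-identical copies. Ranks of Mup1 and Mup7 on the FPKM scale are therefore uncertain as ranks of single genes. On that scale Mup20 stood at rank 11 of the 22 coding rows in db/+ and at rank 2 in db/db, while Mup7 went from rank 12 to rank 18 and Mup1 from rank 9 to rank 13. Among all 55797 genes by mean FPKM, Mup3 was at rank 14 in db/+ and 117 in db/db, Mup20 at rank 42 and 124, and Mup7 at rank 43 and 2262.

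Mup4, Mup5 and Mup6 had few counts in any liver, and no fold is given for them. Mup4, a gene known from nasal tissue, ranged from 0.0489 to 7.38 CPM in db/+ and was listed at 0 in 4 of 6 db/db libraries, with 0.0560 and 0.105 CPM in the other 2. Its genotypes overlap, since db/+ brazzein replicate 2 (0.0489 CPM) lay under both of those. Mup5, known from salivary and lacrimal glands, ranged from 0.343 to 10.3 CPM in db/+ and from 0.0377 to 0.205 CPM in db/db. Mup6 ranged from 0.261 to 4.34 CPM in db/+, was listed at 0 in 3 db/db libraries and reached 0.163 CPM at most there. By mean FPKM in db/+ liver, these 3 stood at ranks 9081, 6529 and 7910 of all genes.

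**Figure D3:**
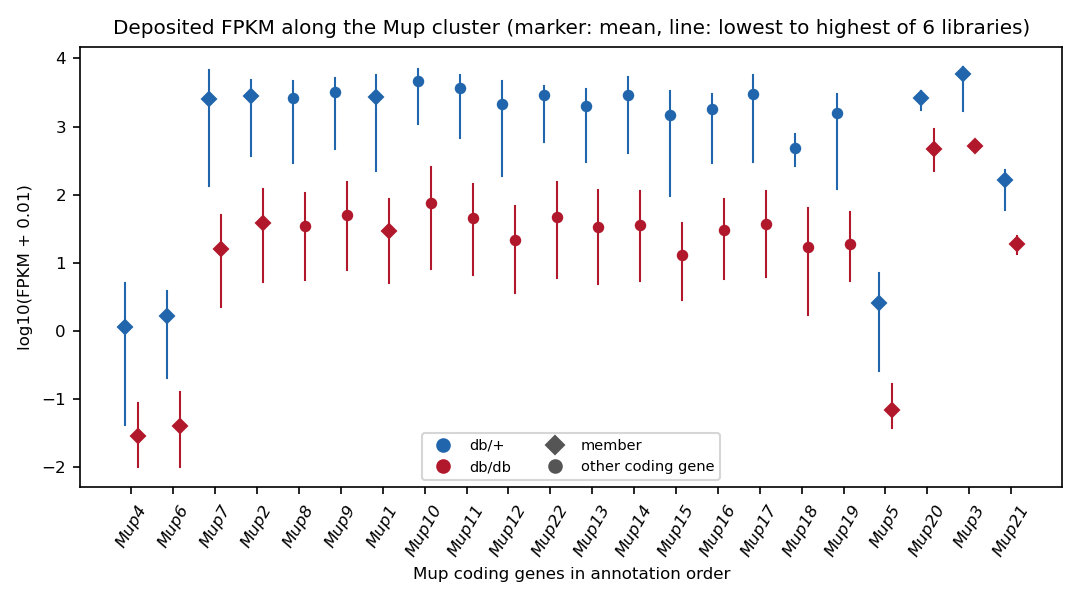
Deposited FPKM of the 22 Mup coding rows as log10(FPKM + 0.01), in the order of the RefSeq annotation (GRCm38.p6), with the mean as a marker and a line from the lowest to the highest of 6 libraries per genotype. Mup20, Mup3 and Mup21 at the right end show the shortest distances between the genotypes among the coding rows, and Mup4, Mup6 and Mup5 the lowest levels.

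The 13 other coding rows, Mup8 to Mup19 and Mup22, showed no overlap between genotypes, with ratios of 31.2 (Mup18) to 125 (Mup15). Without db/db water replicate 2 the ratios ran from 71.6 (Mup18) to 212 (Mup15), over 1.5 times higher for each of the 13. Leaving out other libraries lowered them, to 26.4 for Mup18 without db/db sucrose replicate 2 and 91.1 for Mup15 without db/+ water replicate 2. With the members, 21 of the 22 coding rows did not overlap. Of 6 genes that flank the cluster without belonging to the family, 4 passed the filter on low counts and 0 were called: Inip, Snx30, Slc31a2 and Fkbp15 had log2 differences of 0.19, 0.20, 0.24 and 0.13 (db/db minus db/+, edgeR adjusted p = 0.368, 0.403, 0.468 and 0.94). Among all genes tested for genotype, 15.2% were called. Slc46a2 and Zfp37 were at or near 0 CPM in both genotypes.

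Within each genotype, the near-identical members varied together from library to library. Over 6 libraries, log2(CPM + 1) of Mup1 and Mup2 had a Pearson r of 0.998 in db/+ and 0.999 in db/db, and Mup1 and Mup7 of 0.989 and 0.998. These genes share libraries, and much of their sequence, so these values describe the counts only. Mup3, which shares few windows with Mup1, had an r with Mup1 of 0.964 in db/+ and 0.934 in db/db. Mup20 differed from them, with an r with Mup1 of 0.604 in db/+ and -0.73 in db/db. The opposite order in db/db did not hold for every library. There, water replicate 2 had more Mup1 (112 CPM) and more Mup20 (393 CPM) than water replicate 1 (43.2 and 275 CPM). The libraries of a genotype pool the drinks, and this r was not tested. Mup3 and Mup21 had an r of 0.987 in db/+ and 0.275 in db/db. Genes outside the family were ranked by the lower r with the member sum in the 2 genotypes, among 6141 with at least 10 CPM in each. The 5 most like the sum were Ets2 (0.874), Tubb2b (0.859), Lrp5 (0.842), Phospho1 (0.827) and Tnfrsf12a (0.808). They are the highest of many genes over only 6 libraries a genotype and were not tested, so shared regulation cannot be read from them.

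Whether the drinks changed the members was tested within each genotype, which the choice of the members did not use. By edgeR's quasi-likelihood test with adjustment over all genes, 0 of 9 members were called in each of the 6 drink comparisons and in each of the 3 interactions of genotype with drink, and DESeq2 called 0 as well. For 3 of the 9, the db/db tests and the interactions had hardly any counts behind them: db/db libraries held 0 to 8 counts of Mup4, 3 to 14 of Mup5 and 0 to 13 of Mup6, which passed the filter through db/+ alone. What bears on the drinks in db/db is therefore the other 6 members, set apart after their counts were seen, of which 0 were called. The share of all genes called by edgeR was 0.00517% for sucrose against water, 0.119% for brazzein against water and 0.16% for brazzein against sucrose in db/db. It was 0.0155%, 0.00517% and 0.0207% in db/+, and 0.0155%, 0.0672% and 0.0672% for the interactions, so few genes of any kind were called with 2 libraries a group. At an unadjusted p under 0.05, edgeR had 1 of these 6 members (Mup20) for sucrose against water in db/db. It had 0 in the other 5 drink comparisons and in the interactions. Of all 19352 genes, edgeR had 827 at that threshold for sucrose against water in db/db. It had 1658 for brazzein against water and 2848 for brazzein against sucrose there. In the same order, it had 1158, 1172 and 1693 in db/+, and 961, 1203 and 1997 for the interactions. DESeq2 had 3 of the 6 members for sucrose against water in db/db (Mup1, Mup2 and Mup20). It had 3 for brazzein against water there (Mup1, Mup2 and Mup7), and 0 in the other comparisons. Mup1, Mup2 and Mup7 are near-identical copies, so they do not count as separate results. The number of all genes at that threshold with DESeq2 is not given here. Over all 9 members, edgeR had 2 for sucrose against water in db/db, the added gene being Mup6 with 13 counts in 1 water library and 0 in the other 3 libraries compared, and at most 1 (Mup6) in the interactions. DESeq2 had 4, 3 and 1 of the 9 in db/db, in the order above, 0 in each db/+ comparison and 1 in each interaction.

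In db/db liver, Mup20 was at 275 and 393 CPM on water, 492 and 994 CPM on sucrose, and 428 and 822 CPM on brazzein. The water libraries were thus the 2 lowest of the 6, and the sucrose and brazzein libraries overlapped. The log2 difference of Mup20 was 1.15 for sucrose against water (SE 0.44, 95% interval 0.14 to 2.17, edgeR adjusted p = 1). For brazzein against water it was 0.90 (SE 0.44, interval -0.11 to 1.91, edgeR adjusted p = 0.632), and for brazzein against sucrose -0.25 (interval -1.25 to 0.75, edgeR adjusted p = 0.866). In db/+ liver the same gene was at 2420 and 4279 CPM on water, 4288 and 3958 CPM on sucrose, and 3543 and 2876 CPM on brazzein, and the 3 drinks overlapped except that brazzein lay under sucrose. The interaction, which asks whether the sucrose effect differs between genotypes, was not called for Mup20.

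Mup1, Mup2 and Mup7 showed the other order in db/db liver, with the highest values on water. In all 3 genes water replicate 2 stood far above the other db/db libraries, and such near-identical copies are not 3 separate results. Mup1 was at 43.2 and 112 CPM on water, 27.2 and 5.62 CPM on sucrose, and 15.2 and 17.8 CPM on brazzein, and water did not overlap with the others. Its log2 difference was -2.24 for sucrose against water (SE 1.21, interval -5.03 to 0.56, edgeR adjusted p = 1) and -2.23 for brazzein against water (SE 1.21, interval -5.03 to 0.57, edgeR adjusted p = 0.675). Between brazzein and sucrose it was 0.01 (interval -2.67 to 2.69, edgeR adjusted p = 1). None of these passed, and the intervals are wide. Mup2 and Mup7 had log2 differences of -2.33 and -2.39 for sucrose against water and of -2.47 and -2.59 for brazzein against water. In db/+ liver Mup1 was at 2369 and 8326 CPM on water, 3340 and 4094 CPM on sucrose, and 4249 and 298 CPM on brazzein. There the drinks overlapped.

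Mup3 in db/db liver was at 659 and 778 CPM on water, 699 and 552 CPM on sucrose, and 575 and 626 CPM on brazzein. Its log2 difference between brazzein and sucrose there was -0.06 (interval -1.37 to 1.26, edgeR adjusted p = 0.985). In db/+ it was at 8016 and 11129 CPM on water, 10351 and 8391 CPM on sucrose, and 11058 and 2345 CPM on brazzein, so brazzein replicate 1 lay within the range of the other drinks and brazzein replicate 2 below all of them. The log2 difference between brazzein and sucrose in db/+ was -0.48 (SE 0.57, edgeR adjusted p = 0.89). This turned on the library: without brazzein replicate 1 it was -1.99 and called (edgeR adjusted p = 0.0438), with the remaining brazzein library assumed to vary like the other groups, and without brazzein replicate 2 it was 0.23 (edgeR adjusted p = 0.871).

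**Figure D4:**
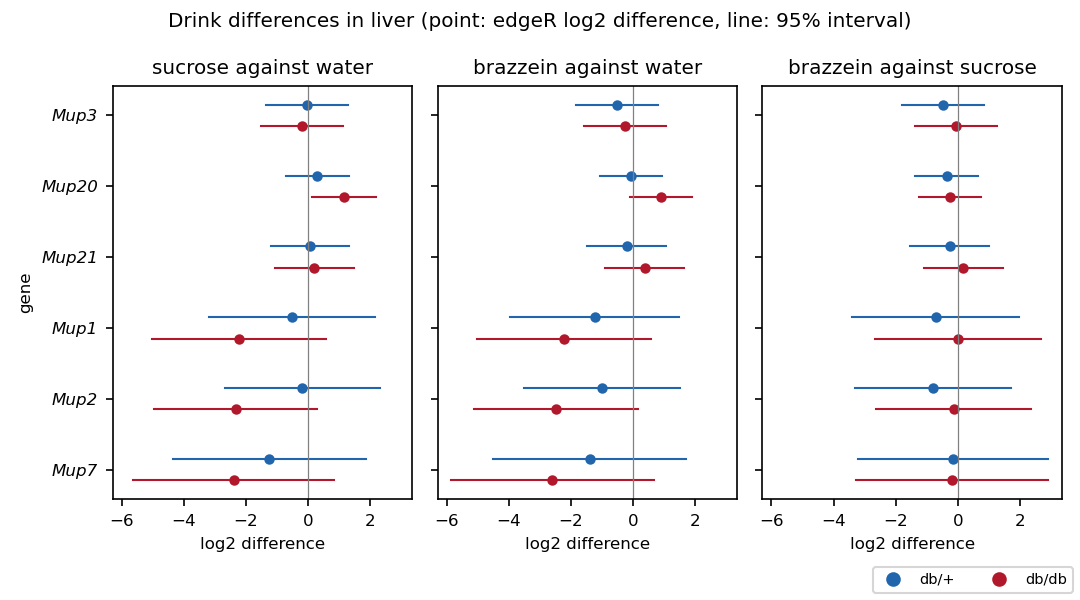
Log2 differences between drinks in liver for the 6 members with ample counts, as edgeR estimates with 95% intervals, by genotype. All intervals cross 0 except that of Mup20 for sucrose against water in db/db (0.14 to 2.17), which did not pass after adjustment.

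In brain, where these genes are not known to be active, the members were close to absent. The 12 brain libraries held 10 to 39 counts each for the 9 members together, 0.128 to 0.586 CPM. Mup4, with Mup13 and Mup18 outside the members, was listed at 0 in all of them. Of the 2 members that could be tested for genotype, 0 were called, against 0.00846% of all genes. Mup3 had a log2 difference of 2.16 (db/db minus db/+, SE 1.68, edgeR adjusted p = 0.629) and Mup5 of -0.49 (SE 0.85, edgeR adjusted p = 0.855). Neither had an unadjusted p under 0.05, DESeq2 called 0 as well, and counts this low limit what could be seen.

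The list of transcription regulators of Mup genes held 24 genes, of which 2 fell and 0 rose in db/db liver, near the 7.27% called lower among all genes. The list had a median log2 of -0.38 (db/db minus db/+; -0.03 over all genes), and the number lower was 4 with DESeq2 and without db/+ brazzein replicate 2, and 1 to 3 without other single libraries. Foxa3, a forkhead factor of hepatocytes, fell from 55.2 ± 16.5 to 25.3 ± 4.97 CPM (SD over 6 libraries a genotype, with a log2 difference of -1.12, SE 0.16, edgeR adjusted p = 0.00515). Nfib, a nuclear factor I family member, fell from 114 ± 18.8 to 73.2 ± 18.5 CPM (log2 -0.65, SE 0.14, edgeR adjusted p = 0.0226), a call lost without any of 5 single libraries (adjusted p up to 0.0731). The growth hormone receptor gene Ghr was at 289.8 ± 23.4 and 272 ± 46.7 CPM (edgeR adjusted p = 0.643), and its signal carrier Stat5b at 11.3 ± 13.2 and 24.6 ± 12.03 CPM (edgeR adjusted p = 0.545). The edgeR adjusted p was 0.14 for the nuclear receptor gene Hnf4a and 0.225 for Zhx2, a repressor of some liver genes. It was 0.472 for Bcl6 and 0.962 for Cux2, which encode repressors with sex-dependent roles in liver, and 0.484 for the glucocorticoid receptor gene Nr3c1.

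Growth hormone acts on its own signalling genes as well as on Mup genes. A list of 10 genes held growth hormone feedback genes, insulin-like growth factor genes with their binding proteins, and Egfr. Of these, 5 were lower and 0 higher in db/db, with a median log2 of -1.41. A place on the list does not mean that growth hormone raises the gene, and a part of growth hormone in these changes was not tested. Socs2, which damps growth hormone signals, fell from 31.2 ± 16.6 to 5.62 ± 1.60 CPM (log2 -2.36, SE 0.37, edgeR adjusted p = 0.00642), and Egfr, the receptor for epidermal growth factor, from 122 ± 50.1 to 22.7 ± 6.20 CPM (log2 -2.41, SE 0.18, edgeR adjusted p = 0.000504). Igfbp2, a binding protein of insulin-like growth factors, fell from 944 ± 188 to 14.1 ± 8.45 CPM, the largest change on this list (log2 -6.08, SE 0.46, edgeR adjusted p = 0.000504). The number lower on this list was 5 or 6 under every alternative run.

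Other genes with a sex bias in mouse liver were called in opposite directions. Of 23 tested male-biased genes outside the Mup family, 17 were lower and 1 higher, with a median log2 of -2.55, and 13 to 17 were lower under the alternatives. Slco1a1, an organic anion transporter, averaged 35.96 ± 52.3 CPM in db/+ and 0.442 ± 0.363 CPM in db/db (log2 -6.23, SE 0.88, edgeR adjusted p = 0.00451). Serpina4-ps1, a pseudogene, averaged 5.52 ± 3.62 against 0.0513 ± 0.126 CPM (edgeR adjusted p = 0.00836), and Serpina1e, a male-biased protease inhibitor gene with close copies, had a log2 difference of -6.50 (SE 0.49, edgeR adjusted p = 0.000504). Fitm1, a gene of lipid droplet formation, was the gene that was higher (log2 1.67, SE 0.34, edgeR adjusted p = 0.0176; 0.0513 without db/+ water replicate 2), and it was named after its value was seen. Of 22 female-biased genes, 10 were higher and 0 lower, with a median log2 of 1.76. Sult2a2, a sulfotransferase, averaged 0.0151 ± 0.0235 CPM in db/+ and 8.81 ± 8.40 CPM in db/db (edgeR adjusted p = 0.00687), and Cyp2b13, a cytochrome P450, had a log2 difference of 8.69 (SE 0.56, edgeR adjusted p = 0.000304). Sult3a1 was listed at 0 in all db/+ livers and was at least 32.4-fold higher in db/db, against a floor of 3 counts per library. Both lists were drawn up with earlier results of these libraries known, so their directions are not independent evidence.

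Other lipocalins were called in both directions, and other abundant secreted proteins of hepatocytes were called lower more often than higher in db/db. Of 8 tested lipocalins outside the Mup family, 3 were higher and 2 lower in db/db (1 to 3 lower with a library left out), with a median log2 of -0.24. Lcn2, an iron-binding lipocalin of inflammation, rose from 8.48 ± 11.7 to 134 ± 63.9 CPM (log2 4.34, SE 0.60, edgeR adjusted p = 0.0042), and Orm2, an acute phase protein, from 42.7 ± 21.7 to 103 ± 46.0 CPM (log2 1.30, SE 0.23, edgeR adjusted p = 0.0108). Apom, a carrier of lipids in lipoproteins, fell from 79.7 ± 31.99 to 44.7 ± 7.35 CPM (log2 -0.79, SE 0.17, edgeR adjusted p = 0.0204), a call lost without any of 5 single libraries (adjusted p up to 0.0738). Of 24 genes of abundant secreted hepatocyte proteins, 2 were higher and 11 lower, with a median log2 of -0.28. With a library left out, 0 to 2 were higher and 8 to 12 lower. The 3 called genes with the largest changes belong to the serpin family of protease inhibitors: Serpina1c, Serpina3k and Serpina1a fell by 1.72, 1.55 and 1.03 on the log2 scale (SE 0.13, 0.13 and 0.09, edgeR adjusted p = 0.000504, 0.00074 and 0.000874). Of the 19352 genes tested, 7.91% were called higher and 7.27% lower in db/db.

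**Figure D5:**
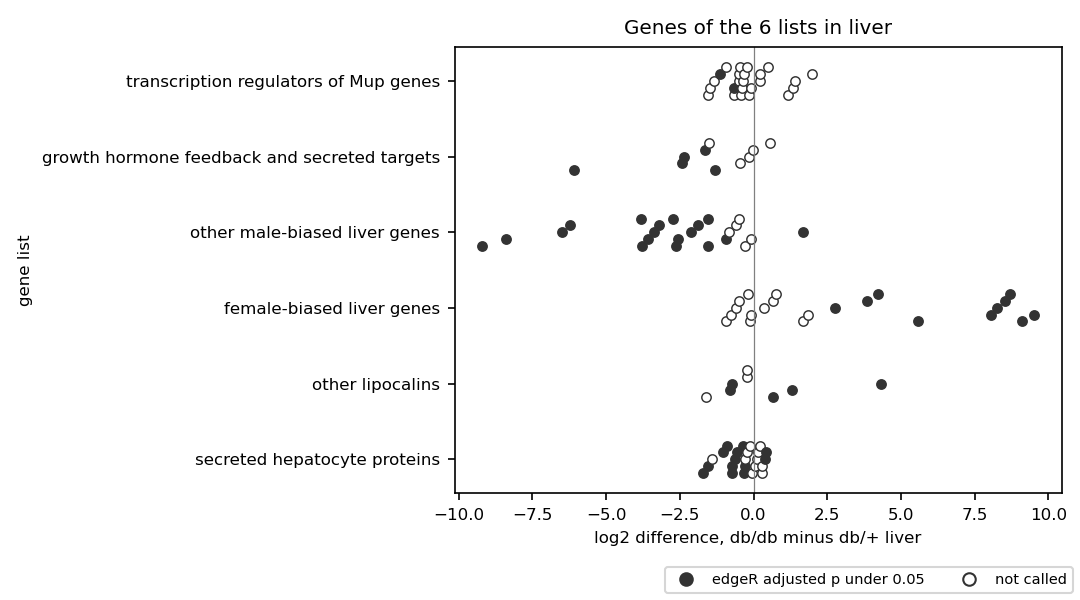
Log2 differences between db/db and db/+ liver (db/db minus db/+, edgeR) for the genes of the 6 lists, filled where the adjusted p was under 0.05. Male-biased genes and those of the growth hormone feedback list lie mostly to the left and the called female-biased genes to the right. Estimates for genes listed at 0 in a genotype (Hsd3b5 and Sult3a1) depend on the fit.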

How the data were processed

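Gene-level values of 12 liver and 12 brain libraries were used, grouped by sample title. TRIzol extraction, selection of poly(A) RNA and a NEBNext Ultra II kit without strand marking are given per the labels' protocols. Per the submitters' processing notes, bcl2fastq and the build GRCm39 were used, with the aligner and counting tool not given in the sources used here. The per-sample files deposited by the authors hold estimated counts, whole numbers for 55797 gene names, not scaled for library size. A deposited series table holds FPKM, which the authors scaled by length and depth, and 12 of its columns were used by group name only, while 36 other per-sample columns were not used. The header inside each db/+ brazzein liver file names the other replicate of that group, and files were assigned as deposited.

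Counts were fitted in R 4.3.3 with edgeR 4.0.16 (TMM, filterByExpr with a minimum count of 10, quasi-likelihood tests, 6 groups per tissue), and p-values were adjusted over all genes by the Benjamini-Hochberg method at a threshold of 0.05. The 95% intervals come from the same fit. Library totals ran from 60384569 to 79385804 in liver, and since the counts are estimates, no counting interval is given. The genotype comparison was tested on simulated counts over 18795 genes, with 20% of 2-fold and 73% of 4-fold changes recovered. The drink comparisons, with 2 libraries a group, were not simulated, so these shares do not apply to them. Alternatives were DESeq2 1.42.0, RLE factors, factors without Mup rows, no filter, a fit with a replicate block, and fits without each single library. Reading frames, windows and promoters were compared with Biopython 1.88. Annotation and promoter windows are of GRCm38, so only names, gene order and the RefSeq windows were taken from them.

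The members, the 6 gene lists, the markers and the tests were chosen with earlier results of these data known. The text names all members, Mup rows with at least 10 CPM in a genotype, the 3 called genes of each list with the largest change and at least 1 CPM in a genotype, 8 regulators whatever their call (1 of them is not reported here), the 5 genes most like the member sum, 3 flanking genes on each side and Lepr.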

Additional observations from a re-analysis of the deposited data

Results flagged for a closer look

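Each member and the sums were examined for a library far from the rest of its genotype in liver, by the gap to its nearest neighbour over the range of the 6 libraries (Dixon's 95% limit for 6 values). Chance flags about 1 in 20 groups, and 8 of 22 were flagged here, among genes that share sequence and libraries. The replicate 2 library of db/db on water stood above the other db/db livers for Mup1 (112 CPM, next 43.2), Mup2 (154 CPM, next 53.0), Mup7 (70.3 CPM, next 23.97) and Mup6 (0.163 CPM, next 0.0527). It also stood above them for the sum of every Mup row (3544 CPM, next 1801). The replicate 2 library of db/+ on brazzein stood below the other db/+ livers for Mup3 (2345 CPM, next 8016). Mup4 was high in db/+ water replicate 2 (7.38 CPM, next 1.11), and Mup5 in db/db brazzein replicate 2 (0.205 CPM, next 0.0790). Mup20 and Mup21 had no such library in either genotype.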

How the results depend on the processing

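The number of members that did not overlap between the genotypes was 8 under each alternative with all libraries and 8 or 9 with a library left out, with 9 without db/+ brazzein replicate 2. In all 17 alternatives each member's log2 difference stayed below 0. The members were picked with this direction known and the runs share libraries, so this is a description and not independent evidence. The ratio of the member sums (17.7) was 15.5 on plain library totals, 15.4 on deposited FPKM and 15.1 to 20.4 with a library left out, and it was 35.5 over all Mup rows, which takes in more genes. For brazzein against sucrose in db/+ liver, 0 to 1 members were called with a library left out, the 1 being Mup3 without db/+ brazzein replicate 1, where a single brazzein library remained. In the other 5 drink comparisons, the 3 interactions and brain, 0 members were called under every alternative run. The 6 lists gave 52 called genes, 60 with DESeq2, 51 without the filter and 41 to 56 with a library left out.

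Replicate numbers do not pair these samples: over 15 pairs of liver groups, same-numbered libraries had correlations of -0.121 to 0.0931 in their deviations, 0 of them over 0.1. A fit with the replicate number as a block called 0 members in each drink comparison, each interaction and brain, and 52 list genes. With 2 libraries a group, the intervals of the drink effects are wide, and for Mup4, Mup5 and Mup6 low counts limit every comparison.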

Other observations

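Rows with a pseudogene name added little to the family in liver. Of the 27, 2 averaged at least 10 CPM in a genotype. Mup-ps17 was at 7.11 to 93.1 CPM in db/+ and 0.0996 to 2.57 CPM in db/db, a ratio of the means of 69.6. That ratio was 132 without db/db water replicate 2 and 59.2 without db/+ water replicate 2. Mup-ps19, which shares windows with Mup20, was at 46.3 to 164 CPM in db/+ and 16.3 to 41.9 CPM in db/db, a ratio of the means of 3.24. Its highest library was db/+ brazzein replicate 2 (164 CPM), the db/+ liver with the lowest Mup3.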
